A study of Mus musculus with 8 samples.

Results

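The 7 light chain genes described here are the kappa constant gene Igkc, the lambda constant genes Iglc1, Iglc2 and Iglc3 and the lambda variable genes Iglv1, Iglv2 and Iglv3. They were chosen by symbol, with earlier results of these data known, and are 7 of the 52550 genes listed in each expression table. The study asked how loss of lactoferrin alters early B cell development, and sequenced RNA from bone marrow cells of C57BL/6J mice sorted as pre-pro-B or pro-B cells. Pre-pro-B cells gave 2 libraries from WT and 2 from Lf-/- mice, and pro-B cells 1 from WT, whose other sample was not analysed here, and 2 from Lf-/- mice. Lf-/- mice carry a knockout of the lactoferrin gene Ltf, the mice were untreated, and their age is not given in the sources used here. The methods and the legends of the study give different numbers of mice per group, and the labels do not tie a library to a single mouse, so p-values measure only the spread between these libraries.

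An antibody light chain is either kappa or lambda. In a developing B cell a V and a J segment of the kappa locus, or of the lambda locus, are joined by the RAG recombinase after the heavy chain has been assembled, and the joined segments are spliced to the constant exon. Before that, the surrogate light chain (Vpreb1, Vpreb2 and Igll1) pairs with the heavy chain in the pre-B cell receptor. Mice make mostly kappa antibodies and have a small lambda locus of repeated V-J-C units, in which Iglv1 is mostly joined to the Iglc3 and Iglc1 units and Iglv2 and Iglv3 mostly to the Iglc2 unit. Plasma cells, the antibody-secreting end stage, carry very large amounts of light chain RNA, and pre-pro-B and pro-B cells are not known for it.

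Igkc lies on chromosome 6 (chr6:70726435-70726966, plus strand, GRCm38) in a single exon. The 6 lambda genes lie on the minus strand of chromosome 16. The 3 lambda constant coding exons are shown because their shares of the lambda signal, given below, varied between libraries. Their likeness also bears on how reads could be assigned. Each is written 5′ to 3′ in the sense of the gene, from GENCODE transcripts of GRCm38, with the bases that are not the same in all 3 in capitals. The first 300 bases of each are given: chr16:19061772-19062071 for Iglc1, chr16:19198554-19198853 for Iglc2 and chr16:19065382-19065681 for Iglc3.
Iglc1: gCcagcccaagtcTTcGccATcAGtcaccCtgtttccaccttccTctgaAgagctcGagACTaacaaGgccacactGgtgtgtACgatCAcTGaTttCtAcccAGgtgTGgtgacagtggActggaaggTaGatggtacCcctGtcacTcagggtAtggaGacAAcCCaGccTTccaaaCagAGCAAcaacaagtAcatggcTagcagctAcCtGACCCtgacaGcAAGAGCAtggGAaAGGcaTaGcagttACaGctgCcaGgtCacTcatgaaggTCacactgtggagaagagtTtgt
Iglc2: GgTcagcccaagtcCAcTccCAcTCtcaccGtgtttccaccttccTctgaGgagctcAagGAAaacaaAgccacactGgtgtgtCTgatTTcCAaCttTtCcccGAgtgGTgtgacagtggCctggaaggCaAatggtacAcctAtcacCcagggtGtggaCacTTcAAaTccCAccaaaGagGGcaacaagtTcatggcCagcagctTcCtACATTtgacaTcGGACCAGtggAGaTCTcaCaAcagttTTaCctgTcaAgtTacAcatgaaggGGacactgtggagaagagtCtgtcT
Iglc3: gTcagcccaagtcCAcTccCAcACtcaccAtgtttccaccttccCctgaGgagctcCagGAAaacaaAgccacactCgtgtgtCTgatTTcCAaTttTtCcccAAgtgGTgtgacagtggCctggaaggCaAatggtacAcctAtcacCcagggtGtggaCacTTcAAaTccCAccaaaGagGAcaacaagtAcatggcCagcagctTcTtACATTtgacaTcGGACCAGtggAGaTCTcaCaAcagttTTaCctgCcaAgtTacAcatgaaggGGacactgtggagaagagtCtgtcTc

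Iglc2 and Iglc3 were 96.5% identical over the aligned exon and differed at 11 of 314 bases. Iglc1 stood further off, at 73.2% identity to Iglc2 and 73.9% to Iglc3. Of the 50-base windows in the transcript of Iglc3, 22.3% also occurred elsewhere, in Iglc2 or in the antisense gene 2010309G21Rik, an exon of which overlaps Iglc3 on the other strand. No 100-base window of Igkc, Iglc1, Iglc2, Iglc3 or Iglv3 was found in another transcript. Whether the libraries kept strand and how shared reads were counted are not given in the sources used here, so the split between Iglc2 and Iglc3 is uncertain. The antisense gene was listed at 1.46 to 9.84 FPKM (fragments per kilobase of transcript, scaled to the mapped fragments of the library), against 116 to 1219 FPKM for Iglc3.

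The first 300 bases of the main variable exons are shown in the same way, with capitals where Iglv1 (chr16:19085022-19085321) and Iglv2 (chr16:19260406-19260705) differ. Iglv3 (chr16:19241231-19241530) is in lower case throughout.
Iglv1: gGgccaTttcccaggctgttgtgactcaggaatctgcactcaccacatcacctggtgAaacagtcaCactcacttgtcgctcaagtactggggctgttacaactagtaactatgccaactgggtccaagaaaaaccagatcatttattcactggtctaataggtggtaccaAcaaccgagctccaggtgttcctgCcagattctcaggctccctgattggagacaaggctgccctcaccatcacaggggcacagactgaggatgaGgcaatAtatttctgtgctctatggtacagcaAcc
Iglv2: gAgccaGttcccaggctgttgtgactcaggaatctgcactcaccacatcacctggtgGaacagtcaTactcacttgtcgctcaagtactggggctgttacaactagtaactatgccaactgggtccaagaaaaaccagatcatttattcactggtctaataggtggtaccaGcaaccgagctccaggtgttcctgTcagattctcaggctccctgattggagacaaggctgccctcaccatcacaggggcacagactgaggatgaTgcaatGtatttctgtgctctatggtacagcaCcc
Iglv3: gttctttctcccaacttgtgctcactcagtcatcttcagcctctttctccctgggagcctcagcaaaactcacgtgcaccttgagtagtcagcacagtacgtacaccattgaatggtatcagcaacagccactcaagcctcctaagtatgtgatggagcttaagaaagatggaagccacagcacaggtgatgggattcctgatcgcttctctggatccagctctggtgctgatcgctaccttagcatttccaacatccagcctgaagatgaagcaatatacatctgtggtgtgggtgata

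Iglv1 and Iglv2 were 97.0% identical, differing at 9 of 305 bases, and 22.2% of the 50-base windows of Iglv1 and 21.1% of those of Iglv2 were shared between them. Iglv3 was 52.1% identical to Iglv1 and shared no 50-base window with any transcript.

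Every library carried large amounts of light chain RNA. The 7 genes together took 1.6% to 8.86% of the summed FPKM of a library, and Igkc alone ranked between the 3rd and the 14th most abundant gene. Genes of neutrophils were more abundant still: S100a8 was listed at 52882 to 150489 FPKM, and the 12 listed neutrophil genes summed to 165492 to 431043 FPKM. Ltf, the targeted gene, was at 2143 to 2731 FPKM in WT and at 88.2 to 168 FPKM in Lf-/- libraries. Lf-/- pre-pro-B replicate 2 stood apart, with 12172 genes above 0 against 19477 to 20250 in the other 6 libraries. Only some results are also given without it, and the ranges over Lf-/- libraries include it. In the other 6 libraries the steps in the low FPKM values gave between 11100000 and 15700000 fragments, from which the smallest member value rested on about 80 fragments and Igkc on at least 53331.

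**Figure D1:**
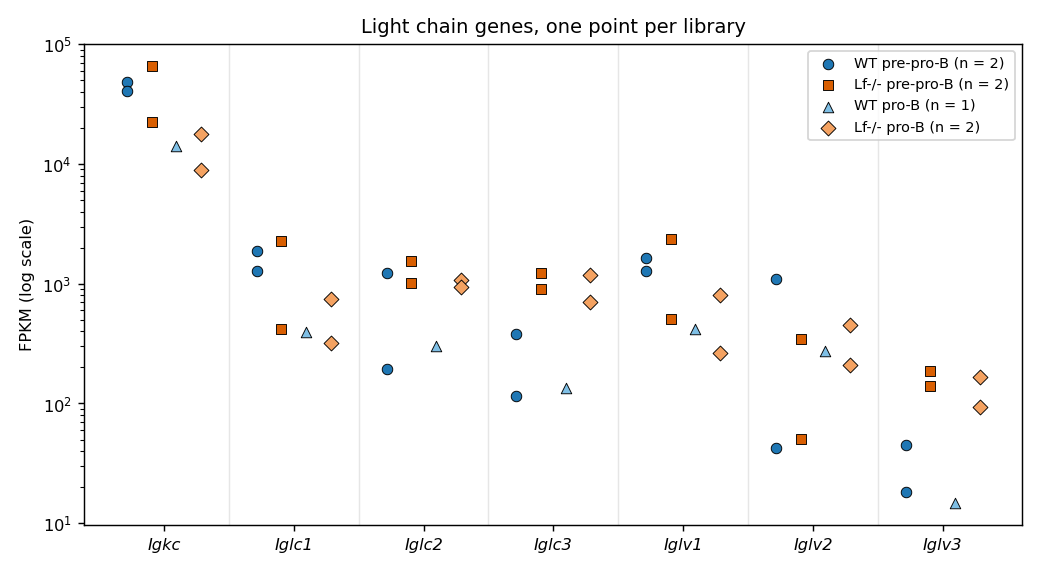
FPKM (log axis) of the 7 light chain genes, with 1 point per library and the 4 groups in separate columns, colours and symbols. The 4 Lf-/- libraries lie above the 3 WT libraries for Iglc3 and Iglv3, and the 3 pro-B libraries lie below the 4 pre-pro-B libraries for Igkc.

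The constant gene of the kappa chain was the highest of the members in every library. Igkc was at 48819 and 40807 FPKM (pre-pro-B) and 14164 (pro-B) in WT libraries, against 66032 and 22236 (pre-pro-B) and 8871 and 17871 (pro-B) for Lf-/-. The genotypes overlapped, and all 3 pro-B libraries lay below all 4 pre-pro-B libraries. The group means were 44813 ± 5665 (SD, n = 2), 44134 ± 30968 (SD, n = 2), 14164 (n = 1) and 13371 ± 6364 (SD, n = 2) in the same order, so that the genotype means lay within the spread of the libraries at both stages. The 160 kappa variable genes, which encode the part of the chain that meets antigen, summed to 0.504 to 0.892 of the Igkc FPKM.

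Iglc1, the constant gene farthest downstream in the lambda locus, followed Igkc. It was at 1869 and 1279 FPKM (pre-pro-B) and 395 (pro-B) in WT libraries, against 2259 and 422 (pre-pro-B) and 318 and 749 (pro-B) for Lf-/-. Both genotypes and both stages overlapped. Igkc stood at 23.9 to 52.7 times the FPKM of Iglc1 over the 7 libraries, a narrower range than for Iglc2 or Iglc3.

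Iglc2 and Iglc3 did not follow Igkc. Iglc2 was at 1227 and 196 FPKM (pre-pro-B) and 304 (pro-B) in WT libraries, against 1561 and 1017 (pre-pro-B) and 1068 and 947 (pro-B) for Lf-/-. Iglc3 was at 383 and 116 FPKM (pre-pro-B) and 134 (pro-B) in WT libraries, against 1219 and 897 (pre-pro-B) and 700 and 1190 (pro-B) for Lf-/-. Every Lf-/- library was above every WT library for Iglc3, while for Iglc2 the first WT pre-pro-B library lay among the Lf-/- values. Iglc4, a further constant gene of the locus, was at 0.159 to 5.16 FPKM.

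Among the variable genes, Iglv1 kept close to Iglc1. It was at 1652 and 1285 FPKM (pre-pro-B) and 422 (pro-B) in WT libraries, against 2355 and 511 (pre-pro-B) and 263 and 799 (pro-B) for Lf-/-. The ratio of Iglv1 to Iglc1 lay between 0.826 and 1.21 in all 7 libraries. Iglv2 varied most of the members, at 1102 and 42.4 FPKM (pre-pro-B) and 273 (pro-B) in WT libraries, against 346 and 50.1 (pre-pro-B) and 456 and 209 (pro-B) for Lf-/-. Its ratio to Iglc2 ran from 0.0492 to 0.898, and neither the genotypes nor the stages separated. Iglv3 was the lowest member in 6 of the 7 libraries, at 45.3 and 18.2 FPKM (pre-pro-B) and 14.7 (pro-B) in WT libraries, against 141 and 186 (pre-pro-B) and 94.1 and 165 (pro-B) for Lf-/-. All 4 Lf-/- libraries were above the 3 WT libraries.

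The test of genotype over both stages used limma on log2(FPKM + 1), a scale that understates changes of low genes, with stage in the model and Benjamini-Hochberg adjustment over 10793 genes. Iglv3 rose in Lf-/- by 2.67 (SE 0.39, n = 3 and 4, adjusted p = 0.0478) and was 1 of 20 genes called, a share of 0.185% of those tested. The value sat at the edge of the threshold: the call was lost in 11 of 13 alternative settings, where the adjusted p ran up to 0.755, while the log2 difference stayed between 2.32 and 3.04. Iglc3 had a log2 difference of 2.49 (SE 0.44, limma adjusted p = 0.106) and Iglc2 of 1.5 (SE 0.56, limma adjusted p = 0.626), neither past the threshold. For Igkc the difference was -0.20 (SE 0.44), for Iglc1 -0.28 (SE 0.59), for Iglv1 -0.20 (SE 0.57) and for Iglv2 -0.36 (SE 1.06), with limma adjusted p of 0.864 to 0.905. The median of all genes tested was 0.21, or -0.06 after median-ratio scaling, and without Lf-/- pre-pro-B replicate 2 the differences of Igkc, Iglc1, Iglv1 and Iglv2 turned positive.

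The genotypes did not overlap for 2 of the 7 members, Iglc3 and Iglv3, both higher in Lf-/-. Over all genes tested, 9.87% lay higher without overlap and 1.13% lower. Without Lf-/- pre-pro-B replicate 2, limma called 2 members, Iglc3 (2.64, adjusted p = 0.0239) and Iglv3, among 123 genes.

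Within each stage no member passed the adjusted threshold. In pre-pro-B cells (limma, 9720 genes, 0% called, 194 genes higher and 90 lower at an unadjusted p under 0.05) Iglv3 had a log2 difference of 2.45 (SE 0.55) and Iglc3 of 2.31 (SE 0.66), both with an adjusted p of 0.941. These were the members without overlap at this stage, against 15.5% of all genes higher and 17.7% lower in the same way. Iglc2 had a difference of 1.36 (SE 0.90), which was 0.038 without WT pre-pro-B replicate 2 and 2.68 without replicate 1. Igkc had a difference of -0.22 (SE 0.73), which was 0.57 without Lf-/- pre-pro-B replicate 2. In pro-B cells, where the single WT library was assumed to vary like the other groups, limma called 0% of 10793 genes, with 451 higher and 16 lower at an unadjusted p under 0.05. The log2 differences were 3.0 (SE 0.65) for Iglv3, 2.75 (SE 0.76) for Iglc3, 1.72 (SE 0.99) for Iglc2 and -0.17 (SE 0.83) for Igkc, beside a median of 0.48 over all genes. Iglc2, Iglc3 and Iglv3 were higher without overlap, as were 75.3% of all genes against that 1 library, with 6.9% lower. The difference of the genotype effect between the stages was tested as an interaction, with limma adjusted p of 0.990 to 0.999 for the 7 members and no gene called (273 higher and 23 lower at an unadjusted p under 0.05).

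Between the stages, Igkc differed by -1.63 (pro-B minus pre-pro-B, SE 0.44), Iglv1 by -1.47 (SE 0.57) and Iglc1 by -1.39 (SE 0.59), all with a limma adjusted p of 0.947. For Iglc2 the difference was -0.47 (SE 0.56), for Iglc3 -0.37 (SE 0.44), for Iglv3 -0.59 (SE 0.39) and for Iglv2 0.86 (SE 1.06). Leaving out 1 library moved Iglv2 between 0.08 (without Lf-/- pre-pro-B replicate 2) and 1.70 (without WT pre-pro-B replicate 1), and Iglc2 between -0.005 and -0.89 (without the first and the second WT pre-pro-B library). Of all genes tested 0.00927% were called. The stages did not overlap for Igkc alone of the 7 members, beside 0.945% of all genes lower and 1.2% higher in this way. Without Lf-/- pre-pro-B replicate 2 the difference of Igkc was -2.02 (limma adjusted p = 0.0185, among 36 genes called). In the same fit without that library Iglc1 differed by -2.09 and Iglv1 by -2.07. In bulk samples fewer cells of a type and less RNA per cell cannot be told apart.

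**Figure D2:**
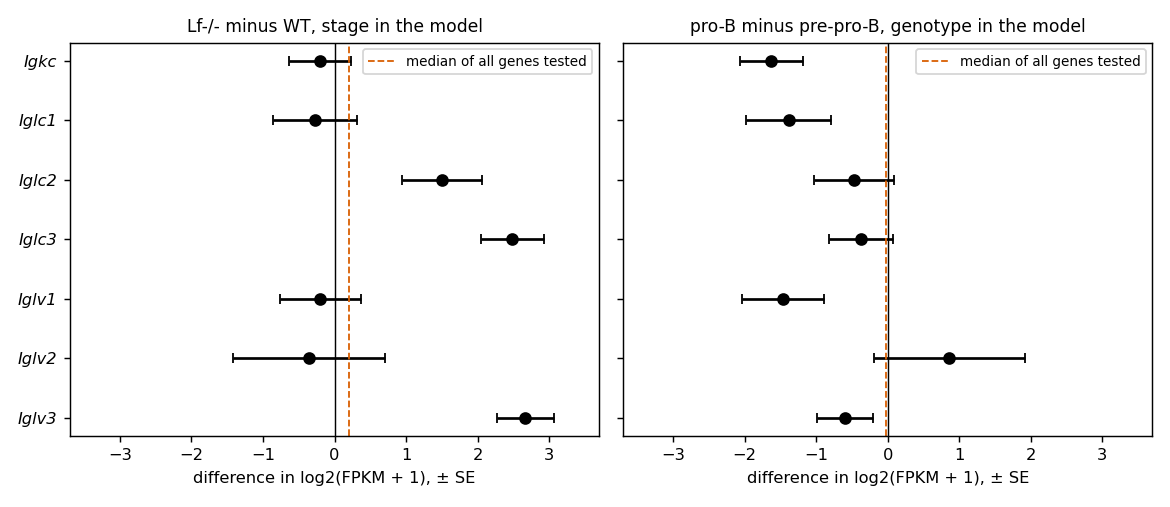
Difference in log2(FPKM + 1) of each member from limma, Lf-/- minus WT on the left and pro-B minus pre-pro-B on the right, with bars of 1 standard error and a dashed line at the median of all genes tested. On the left Iglv3 (2.67), Iglc3 (2.49) and Iglc2 (1.5) lie above the others, and on the right Igkc, Iglv1 and Iglc1 lie between -1.63 and -1.39.

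The kappa to lambda ratio, Igkc FPKM over the summed FPKM of Iglc1, Iglc2 and Iglc3, was lower in every Lf-/- library than in every WT library. It was 14.0 and 25.7 (pre-pro-B) and 17.0 (pro-B) in WT libraries, against 13.1 and 9.52 (pre-pro-B) and 4.25 and 6.19 (pro-B) for Lf-/-. Kappa therefore remained the larger in all 7 libraries, and lambda made up 3.75% to 19.0% of the constant FPKM. On the log2 scale the WT mean was 4.19 ± 0.45 (SD, n = 3) and the Lf-/- mean 2.92 ± 0.71 (SD, n = 4), a difference of -1.27, or 2.41-fold lower (two-sided exact permutation p = 0.0571, the smallest that 3 against 4 libraries allow, adjusted p = 0.0762 over 4 tests). This test could not reach 0.05 with these libraries. Exchanging libraries only within a stage gave -1.25 (exact permutation p = 0.0556, the smallest that its 18 regroupings allow). The difference was -1.38 without Lf-/- pre-pro-B replicate 2. With Iglv1, Iglv2 and Iglv3 added to the lambda sum the difference was -0.90 (exact permutation p = 0.114). The genotypes were then no longer fully apart.

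The groups nearly met in pre-pro-B cells, at 14.0 and 13.1, and lay further apart in pro-B cells. The log2 difference was -0.76 in pre-pro-B (exact permutation p = 0.333, the smallest that 2 against 2 allow) and -1.73 in pro-B, with 1 WT library and no test. Between stages the log2 ratio differed by -0.93 (pro-B minus pre-pro-B, exact permutation p = 0.229, adjusted p = 0.229), with overlap, and by -1.504 without WT pro-B replicate 1 and -0.51 without Lf-/- pro-B replicate 1. The part that each lambda gene took in the genotype difference was uneven: Igkc over Iglc1 overlapped between genotypes, whereas Igkc over Iglc3 was 105 to 353 in WT and 12.7 to 54.2 in Lf-/- libraries.

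**Figure D3:**
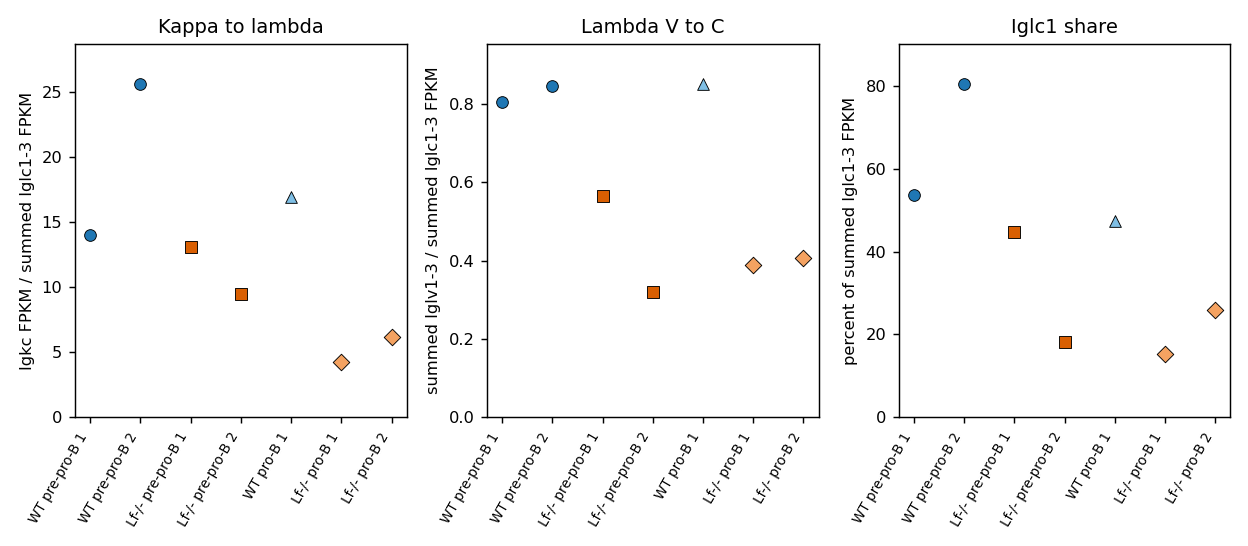
Kappa to lambda ratio, lambda V to C ratio (both FPKM over FPKM) and Iglc1 share (percent of the summed lambda constant FPKM), with 1 point per library and axes from 0. In all 3 panels the 4 Lf-/- libraries lie below the 3 WT libraries, and the nearest WT and Lf-/- values are 14.0 and 13.1, 0.805 and 0.564, and 47.4% and 44.8%.

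The make-up of the lambda constant signal differed in the same way. Iglc1 took 53.7% and 80.4% of it (pre-pro-B) and 47.4% (pro-B) in WT libraries, against 44.8% and 18.1% (pre-pro-B) and 15.2% and 25.9% (pro-B) for Lf-/-. Its mean share was 60.5% ± 17.5 in WT (SD, n = 3) and 26.0% ± 13.3 in Lf-/- (SD, n = 4), a difference of -34.5 points without overlap (two-sided exact permutation p = 0.0571, adjusted p = 0.0762). Iglc3 took 7.27% to 16.1% in WT and 24.2% to 41.2% in Lf-/- libraries, while the shares of Iglc2 overlapped at 12.3% to 36.5% and 31.0% to 51.2%. Shares sum to 100%, so a lower share of Iglc1 is the same fact as a higher share of the others.

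**Figure D4:**
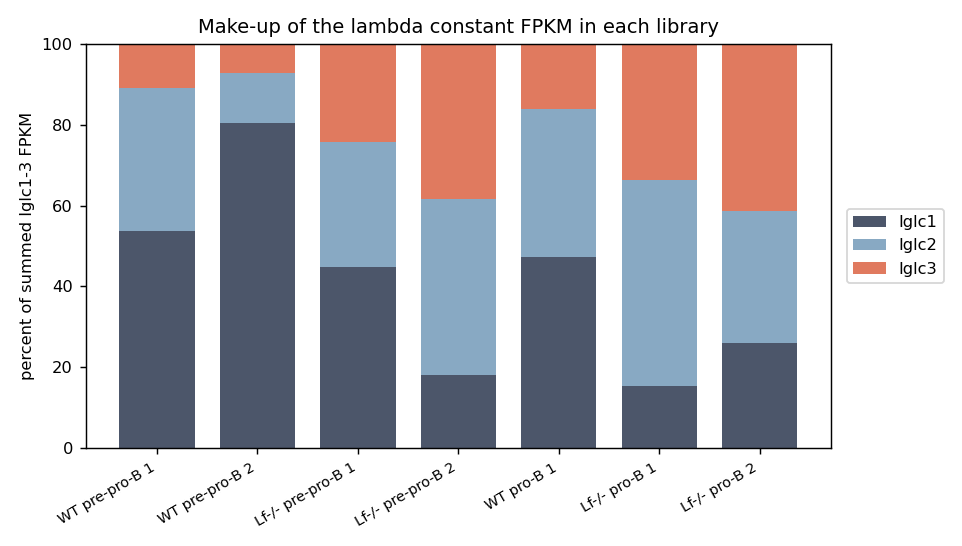
Percent of the summed FPKM of Iglc1, Iglc2 and Iglc3 that each gene took in each library, as stacked bars. Iglc1 takes 47.4% to 80.4% in the 3 WT libraries and 15.2% to 44.8% in the 4 Lf-/- libraries.

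The lambda V to C ratio, the summed FPKM of Iglv1, Iglv2 and Iglv3 over that of the 3 constant genes, was also lower in Lf-/- cells. It was 0.805 and 0.846 (pre-pro-B) and 0.851 (pro-B) in WT libraries, against 0.564 and 0.320 (pre-pro-B) and 0.390 and 0.407 (pro-B) for Lf-/-. The WT libraries stayed within a narrow band, and the log2 difference of the means was -1.02 (2.03-fold lower, two-sided exact permutation p = 0.0571, adjusted p = 0.0762, n = 3 and 4). The summed lambda constant FPKM ran from 834 to 3480 in WT and from 2086 to 5038 in Lf-/- libraries, and the summed variable FPKM from 709 to 2800 and from 747 to 2842. Both sums overlapped between genotypes, so that the ratios separated the genotypes where the sums did not. The kappa to lambda ratio, the Iglc1 share and the lambda V to C ratio divide by the same lambda constant sum. Their separations are therefore not independent results. Over the same libraries the kappa V to C ratio overlapped, at 0.504 to 0.892 in WT and 0.581 to 0.836 in Lf-/-.

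The surrogate light chain genes, which serve the stage before the true light chain, were measured beside the members. All 4 of the listed genes had positive log2 differences over both stages (median 1.94) and none passed the threshold. Vpreb3, a relative of Vpreb1, was at 38.1 to 123 FPKM in WT and 213 to 750 in Lf-/- libraries (log2 difference 2.42, SE 0.43, limma adjusted p = 0.107). Vpreb1 overlapped, at 12.1 to 70.0 FPKM in WT and 33.5 to 351 in Lf-/-. Of 19 genes for light chain recombination and its regulators 16 were tested, 14 with a positive and 2 with a negative difference, a median of 1.20, and none called. Irf4 and Spib, partners in activating light chain enhancers, had log2 differences of 1.82 (SE 0.43, limma adjusted p = 0.243) and 2.14 (SE 0.43, limma adjusted p = 0.152). Rag1 and Rag2, the recombinase itself, were low. Rag1 was at 0 to 0.166 FPKM in WT and 0.338 to 1.81 in Lf-/- libraries, without overlap (log2 difference 0.97, SE 0.29, limma adjusted p = 0.418), and Rag2 overlapped at 0.0994 to 0.44 and 0 to 1.69 FPKM.

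Cd79a and Cd79b encode the pair of chains that carry the signal of the assembled receptor. Both rose in Lf-/-, Cd79a by 2.79 (SE 0.34, limma adjusted p = 0.0273) and Cd79b by 2.82 (SE 0.30, limma adjusted p = 0.0136), and all 6 genes of the receptor partner list had positive differences (median 2.38). In the same fit the difference of Igkc was -0.20, and the gap between these genes was not tested. With no filter, and without WT pro-B replicate 1, limma called 0 genes in this comparison, so the calls given here and below for listed genes were lost too. Of 8 heavy chain constant genes 7 were tested and Ighd, the IgD constant gene of mature naive B cells, rose by 3.36 (SE 0.48, limma adjusted p = 0.0444), while Ighm, at 385 to 4830 FPKM, overlapped between genotypes. Igha, the IgA constant gene of switched cells, was at 567 to 4608 FPKM. Like Igkc it was lower in all 3 pro-B than in all 4 pre-pro-B libraries, beside 0.945% of all genes tested. Its log2 difference, pro-B minus pre-pro-B, was -2.31 (SE 0.32, limma adjusted p = 0.213). Of the 7 heavy chain constant genes tested, 4 were lower and 3 higher in pro-B, among the latter Ighg3 by 2.42 (SE 1.02).

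Markers of other B lineage stages were read beside these values, and their part in the results was not tested. In the mature B list 11 of 12 genes were tested, all with positive differences (median 2.10). Limma called 4 of them higher in Lf-/-, Ms4a1, Fcmr, Ighd and Fcrla, beside 0.185% of all genes called in either direction. The summed list ran from 55.1 to 109 FPKM in WT and from 304 to 584 in Lf-/- libraries, with Cr2 and Bank1 at 0 in at least 1 library. The early B list, which also holds Cd79a and Cd79b, had 14 of 15 genes tested, all with positive differences (median 1.66), and summed to 196 to 520 FPKM in WT and 1408 to 2812 in Lf-/-. Of the plasma cell list 11 genes were tested, 10 with a positive and 1 with a negative difference (median 0.55), and none called. Among the 13 listed, Irf4, Slamf7 and Tnfrsf13b were higher in every Lf-/- library, beside 9.87% of all genes tested. The summed list overlapped between genotypes, at 365 to 1523 and 508 to 1818 FPKM. The joining chain gene Jchain made up most of this sum except in Lf-/- pro-B replicate 1 (125 of 508 FPKM). It was at 125 to 523 FPKM in the 3 pro-B and 643 to 1509 in the 4 pre-pro-B libraries. That is apart in the same direction as Igkc, beside 0.945% of all genes tested. The labels of the sorted cells are used here as names, and purity was not tested.

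**Figure D5:**
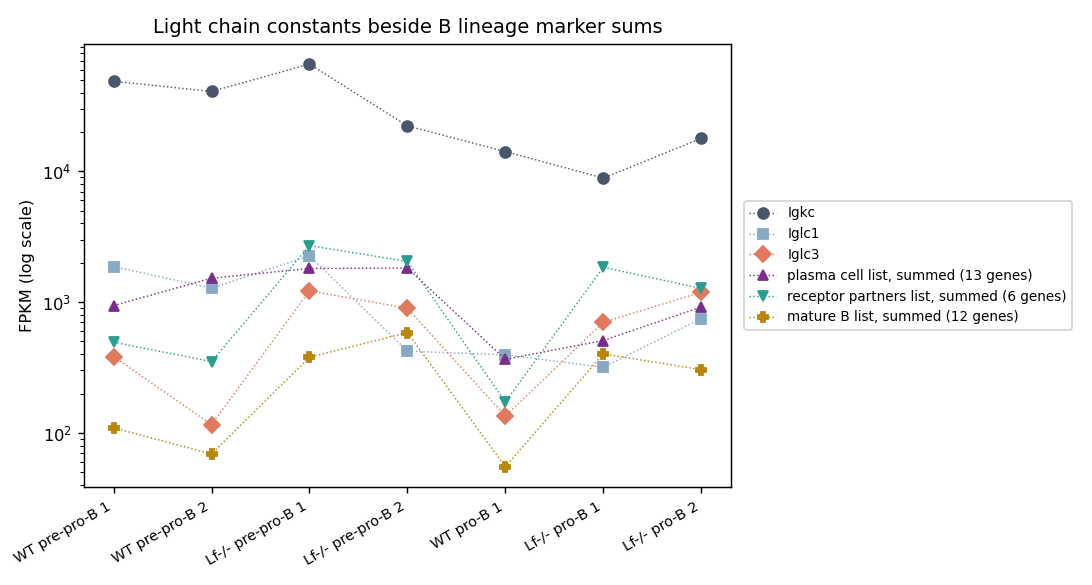
FPKM (log axis) of Igkc, Iglc1 and Iglc3 and of the summed plasma cell, receptor partner and mature B lists in each of the 7 libraries (dotted lines only join the points of a gene or list). Iglc3 and the receptor partner and mature B sums are lower in the 3 WT libraries than in the 4 Lf-/- libraries, and Igkc is lower in the 3 pro-B libraries.

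Some markers of other cells also differed in level between the genotypes. Of the 12 neutrophil genes 10 had negative differences (median -0.58) and limma called Ltf, the targeted gene, while the summed list overlapped between genotypes. Ltf, Elane, Mpo, Prtn3, Ctsg and Lcn2, 6 of the 12, were lower in every Lf-/- than in every WT library, beside 1.13% of all genes. Elane, the neutrophil elastase gene, was at 13713 to 18996 FPKM in WT and 2673 to 10371 in Lf-/- libraries (log2 difference -1.46, SE 0.51, limma adjusted p = 0.581). The T and NK sum was 904 to 1293 FPKM in WT and 368 to 987 in Lf-/-. Most of it was Nkg7, at 885 to 1283 and 324 to 919 FPKM. Of the 8 T and NK genes tested 7 had positive and 1 a negative difference (median 0.49). Cd3g, Trac, Cd4, Klrb1c and Ncr1 were at 0 in Lf-/- pre-pro-B replicate 2 only. The erythroid sum was 14751 to 55792 and 29537 to 105647 FPKM, and the plasmacytoid dendritic sum 80.1 to 108 and 90.9 to 492 FPKM. Both overlapped. Of the 8 plasmacytoid dendritic genes Bst2, Irf8 and Tcf4 were higher in every Lf-/- library, beside 9.87% of all genes tested, with none called. The monocyte and macrophage sum lay lower in Lf-/- without overlap, at 1027 to 1881 against 624 to 939 FPKM. Most of it was Ly6c2, at 956 to 1812 against 563 to 832 FPKM. Of its 6 genes 4 had positive and 2 negative differences (median 0.23), and limma called none. The part of these cells in the light chain values was not tested.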

How the data were processed

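RNA from sorted bone marrow pre-pro-B and pro-B cells was sequenced on a NovaSeq instrument, and the authors deposited 1 table per library with an FPKM value per gene. That the unit is FPKM was inferred from the values. The submitters' processing notes name TopHat, Cufflinks, HTSeq, DESeq and GRCm38 without roles; annotation release, strand setting and treatment of multiply mapped reads are not given in the sources used here. The 7 members and all gene lists were chosen with earlier results of these data known.

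Gene symbols were taken from the tables, and 52403 of 52550 identifiers matched GENCODE (GRCm38). Genes reaching 1 FPKM in 2 or more libraries were tested on log2(FPKM + 1) with limma 3.58.1 in R 4.3.3 (trended empirical Bayes, Benjamini-Hochberg adjustment over all genes tested). Pre-pro-B was fitted alone, the other comparisons on all 7 libraries. Ratios were compared by exact permutation over libraries. Named genes were the members, at most 4 per list with the largest difference, markers needed to check a label, and the 5 genes most like Igkc and the 5 most like the lambda constants; other genes were named after their values were seen, and some listed genes are not reported here. Depth was read from even steps in FPKM times transcript length. The limma and permutation steps were tested on simulated data. Coding exons were aligned with mafft 7.526. Alternatives were another pseudocount and filter, median-ratio and quantile scaling, a replicate block and leaving out each library.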

Additional observations from a re-analysis of the deposited data

How the results depend on the processing

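The count of members called for genotype over both stages, 1, fell to 0 with a pseudocount of 0.1, with no filter, with median-ratio scaling, with quantile normalization and with the replicate block, was 2 with at least 1 FPKM in every library, and ran from 0 to 2 on leaving out 1 library. Iglv3 lost its call when any library other than Lf-/- pre-pro-B replicate 2 was left out (adjusted p 0.0530 to 0.755). In pre-pro-B cells the count, 0, was 2 with the replicate block (Iglc3 adjusted p = 0.0452 and Iglv3 0.0218, among 65 genes called) and 0 to 3 on leaving out 1 library; it was 3 without Lf-/- pre-pro-B replicate 1, where 3338 genes were called and the lone Lf-/- library was assumed to vary like the WT ones. Between stages it ran from 0 to 1. Differences of replicate 1 minus replicate 2 correlated between groups at 0.0393, 0.0532 and -0.0127. These values cannot exclude that same-numbered libraries share mice or a batch, as some involve Lf-/- pre-pro-B replicate 2, which stood apart. The labels use the same numbers at both stages. No member was called for genotype in pro-B or for the interaction under any alternative.

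Directions turned only for small differences. For genotype over both stages, leaving out 1 library gave ranges of -0.59 to 0.20 for Igkc, -0.78 to 0.42 for Iglc1, -0.70 to 0.41 for Iglv1 and -1.44 to 0.90 for Iglv2, which was 0.15 with the replicate block. Igkc ran from -1.01 to 0.57 in pre-pro-B and from -0.67 to 0.34 in pro-B, and Iglc3 between stages was 0.021 with quantile normalization. The cause was not tested. The kappa to lambda ratio kept its direction between genotypes in all 11 alternatives (log2 difference -1.54 to -0.90), as did the Iglc1 share (-41.1 to -24.5 points) and the lambda V to C ratio (-1.17 to -0.90) in 8 each. With the lambda variable genes added to the lambda sum, the kappa to lambda ratio no longer separated the genotypes fully (-0.90, exact permutation p = 0.114). With 3 against 4 libraries the exact permutation tests of the ratios could not pass 0.05. Between stages the kappa to lambda ratio kept its direction, at -1.504 to -0.51 on leaving out 1 library, and no depth could be read for Lf-/- pre-pro-B replicate 2.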

Other observations

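J segments are joined between V and C. Iglj2, which lies inside the annotated span of Iglc2, was at 264 and 66.3 FPKM (pre-pro-B) and 64.4 (pro-B) in WT libraries, against 386 and 329 (pre-pro-B) and 227 and 232 (pro-B) for Lf-/-, with the first WT pre-pro-B library among the Lf-/- values. Iglj3 was at 2.55 to 3.65 FPKM in WT and 5.15 to 20.6 in Lf-/- libraries, without overlap. Iglj1 overlapped over all libraries, at 2.52 to 7.89 and 5.41 to 42 FPKM, but in pre-pro-B was at 7.89 and 4.17 FPKM in WT against 42 and 36 in Lf-/-, and Iglj4 was listed at 0 in all 7 libraries. Of the kappa J segments Igkj3, Igkj4 and Igkj5 overlapped between genotypes, and each was at 0 in Lf-/- pre-pro-B replicate 2. Igkj1 and Igkj2 lay higher in Lf-/- without overlap, at 3.91 to 8.41 against 10.9 to 33.4 FPKM and at 0.741 to 1.52 against 2.92 to 4.78 FPKM. The antisense gene 2010309G21Rik also lay higher, at 1.46 to 3.27 FPKM in WT and 7.24 to 9.84 in Lf-/-. Over all genes tested, 9.87% lay higher in Lf-/- without overlap. J segments are very short (Iglj3 spans chr16:19067041-19067078) and the fragments behind their values were not counted. Low J segment values may therefore rest on few fragments.

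Over the 7 libraries the genes whose log2 values were most like those of Igkc among 10793 genes were Iglv1 (Pearson r = 0.968), Igkv6-17 (0.963), Ighv1-7 (0.962), Gm7936 (0.959) and Igkv4-59 (0.957). Those most like the summed lambda constants were Igkv8-24 (0.959), Rfxank (0.941), Gm8974 (0.923), Asf1a (0.909) and Igkv4-77 (0.905). Among the members, Iglc1 and Iglv1 (0.987) and Iglc3 and Iglv3 (0.978) were the most alike pairs, while Igkc and Iglc3 gave 0.00256. All points share the same 7 libraries, so these values describe these libraries only.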
